A study of Brassica napus with 6 samples.

Results

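Chromosome C5 of oilseed rape (Brassica napus) was examined in the hybrid HZ62, for the tissue in which each of its genes was read most. Its genes were taken as all identifiers that begin with ZS11C05 in the deposited normalized table, 4576 of the 80932 genes listed there. They were ordered by the number in the identifier, because the count table holds no gene of this chromosome and no position was at hand. C5 was chosen because few of its genes were highest in silique in earlier results of the same libraries, so that share is given as a description, with no test between chromosomes.

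RNA sequencing covered 3 tissues of HZ62, labelled wild type, with 2 libraries each. Seedlings were 2 weeks old, flower buds were shorter than 2 mm (the label reads flower bug) and siliques measured 3 to 5 cm. Days lasted 16 h at 22 °C and nights 8 h at 18 °C in all groups. The labels do not say whether both libraries of a tissue stem from different plants. The p-values therefore rest on the spread between these libraries alone, which may be technical. The fit gave each gene a shared spread over the 3 tissues, moderated by the trend over all genes. Every contrast of a gene thus had the same standard error. In whole tissues, fewer cells of a type and less RNA per cell cannot be told apart.

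Brassica napus arose from a cross of turnip-like and cabbage-like ancestors, whose chromosomes are named A and C, so C5 descends from the cabbage side. A flower bud holds developing petals, stamens and carpels. The silique is the pod that forms from the carpels after pollination, and it carries the growing seeds. Plant chromosomes as a rule have gene-rich arms and a gene-poor middle around the centromere. Where the centromere of C5 lies among the identifiers is not given in the sources used here. No gene name could be given, since 0 of the 4576 identifiers matched the reference table of named genes, so tissue markers could not be checked either.

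The number in the identifier served as the map. On the 13 chromosomes of the count table, 100% of neighbouring genes in number order were also in position order, and numbers rose in steps of 10. C5 identifiers ran from number 20 to number 62970, which leaves room for 6297 gene models at that step. The listed genes were 72.7% of these numbers, and the others were not analysed here. On the chromosomes of the count table, every gene model missing from the normalized table had 0 reads in all 6 libraries.

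Between 3973408 (seedling replicate 2) and 24110359 (seedling replicate 1) reads were recovered per library, and C5 took 216690 to 1374989 of them. The libraries of seedling lay furthest apart. On the log2 scale the median absolute difference between replicates of a C5 gene was 0.37 in seedling, 0.16 in silique and 0.15 in flower bud. Because the fit assumed equal spread in all tissues, the spread of seedling also entered the contrast of silique and flower bud. Of the listed C5 genes, 457 had no read and 1250 had reads but stayed under the filter, which asked for a level of at least 1 in 2 or more libraries. The remaining 2869 genes, 62.7% of those listed, were tested, against 63.6% on the other chromosomes. Levels (x) are RPM, reads scaled to a common library size with TMM factors, and differences are on the log2(x + 1) scale, which understates changes of low genes. Levels are not divided by gene length, so between genes they compare reads, not transcripts.

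The median level of tested C5 genes was slightly above that of other tested genes in all 6 libraries. The median level of tested C5 genes was 8.23 and 6.87 in the seedling libraries, 8.12 and 8.22 in the flower bud libraries, and 7.70 in each silique library. Tested genes of the rest of the genome had medians of 7.50, 6.25, 7.42, 7.39, 7.23 and 7.14 in the same order. Genes with a level of at least 1 in both libraries were 53.0% of listed C5 genes in seedling (51.7% elsewhere), 53.9% in silique (53.5% elsewhere) and 54.5% in flower bud (53.7% elsewhere).

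C5 gave 5.70% and 5.45% of the reads in seedling, 5.78% and 5.80% in silique, and 5.92% and 5.94% in flower bud, for replicates 1 and 2. The tissues did not overlap, and seedling held the lowest shares. The mean share was 5.58% ± 0.176 (SD, n = 2) in seedling, 5.79% ± 0.0143 in silique and 5.93% ± 0.0139 in flower bud. The silique share was 0.213 percentage points above the seedling share, and the difference of silique minus flower bud was -0.141 points. A two-sided exact permutation test of 2 libraries against 2 gave its smallest possible p of 0.333 for each pair. Leaving out the 10 most abundant genes of each library changed silique minus flower bud to -0.0194 points (exact permutation p = 0.667) and flower bud minus seedling from 0.354 to 0.126 points.

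Flower bud and seedling were compared first, a contrast that did not enter the choice of the chromosome. On C5, 558 genes were higher and 522 lower in flower bud (limma, Benjamini-Hochberg adjusted p under 0.05 over all genes and an absolute log2 difference of at least 1). These were 19.4% and 18.2% of its tested genes. Over all 51326 tested genes the shares were 19.5% higher and 19.4% lower, so both C5 shares lay near the background. The median log2 difference was 0.10 on C5 and 0.13 over all genes, and among the called C5 genes it was 1.45 for those higher and -1.75 for those lower. The balance depended on scaling: with the values as deposited the median over all genes was 0.48, and 870 C5 genes were higher and 385 lower. Without flower bud replicate 1 or 2 the higher genes fell to 280 and 295.

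Both C5 genes named as higher in flower bud than in seedling were read almost nowhere else. ZS11C05G039060 had 347 and 385 RPM in flower bud and no read in any seedling or silique library. It was at least 3058-fold higher than in seedling, where the floor was 3 counts over both libraries (limma adjusted p = 8.66e-06). ZS11C05G025360 stood at 383 and 353 RPM in flower bud, had 4 reads in seedling replicate 1 and none in seedling replicate 2, and had 0 reads in silique. Its log2 difference over seedling was 8.40 ± 0.198 (SE; limma adjusted p = 8.66e-06). These were also the most abundant C5 genes of those highest in flower bud, and they were named again as lower in silique than in flower bud, at least 2865-fold and 2882-fold lower.

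The genes named as lower in flower bud than in seedling were also those named as lower in silique than in seedling. ZS11C05G011220 had 424 and 384 RPM in seedling, 0 reads in flower bud, and 0.47 and 0.94 RPM in silique. It was at least 3856-fold lower in flower bud (limma adjusted p = 8.66e-06), and its log2 difference of silique minus seedling was -7.91 ± 0.209 (SE; limma adjusted p = 1.75e-05). ZS11C05G001350 had 315 and 446 RPM in seedling, 0.14 in each flower bud library, and 1.09 and 0.75 in silique. The log2 difference from seedling was -8.37 ± 0.229 in flower bud (SE; limma adjusted p = 9.46e-06) and -7.62 ± 0.229 in silique (limma adjusted p = 2.25e-05).

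In silique, 392 C5 genes were higher and 421 lower than in seedling, 13.7% and 14.7% of those tested, where 15.2% and 15.6% of all tested genes were called. Against flower bud, 262 were higher and 249 lower in silique, 9.13% and 8.68%, where 11.3% and 9.39% of all tested genes were called. Both contrasts entered the choice of C5, and nothing is read from these shares. Among called C5 genes the median log2 difference of silique minus flower bud was 1.55 for those higher and -1.58 for those lower, close to 1.57 and -1.61 over all called genes. With the values as deposited, 568 C5 genes were higher and 297 lower in silique than in seedling. Leaving out silique replicate 1 or 2 brought the genes higher than in seedling to 196 and 214, those higher than in flower bud to 107 and 109, and those lower than in flower bud to 158 and 155. When 1 of the flower bud replicates was left out, 169 and 165 C5 genes were higher and 70 and 71 lower in silique than in flower bud.

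Genes called higher in 1 tissue than in both others give the tissue preference. Of the 2869 tested C5 genes, 102 were highest in silique, or 3.56%, where the share over all tested genes was 4.86%. A further 181, or 6.31%, were highest in flower bud (6.46% over all tested genes), and 323, or 11.3%, in seedling (12.3%). The seedling share of C5 was the second lowest of the 19 chromosomes and the flower bud share the ninth lowest. The silique share was the lowest, followed by C9 and C3 with 4.18% each, while the other C chromosomes reached up to 5.07%. A5, the A chromosome that bears the same number, had 4.88% highest in silique. Genes called lower in 1 tissue than in both others were 229 with the low in seedling, or 7.98% (7.96% over all tested genes), 42 with it in silique, or 1.46% (1.83%), and 145 with it in flower bud, or 5.05% (5.48%). Without 1 library these counts moved by over 1.5 times: genes lowest in seedling to 433 and 137 without seedling replicate 1 or 2, 148 without flower bud replicate 1, and 131 and 139 without silique replicate 1 or 2. Genes lowest in flower bud went to 94 and 88 without a flower bud replicate and to 72 and 73 without a silique replicate, and genes lowest in silique to 23 and 21 and to 25 and 20. Genes called in none of the pairs were 51.8% of tested C5 genes and 48.3% elsewhere.

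**Figure D1:**
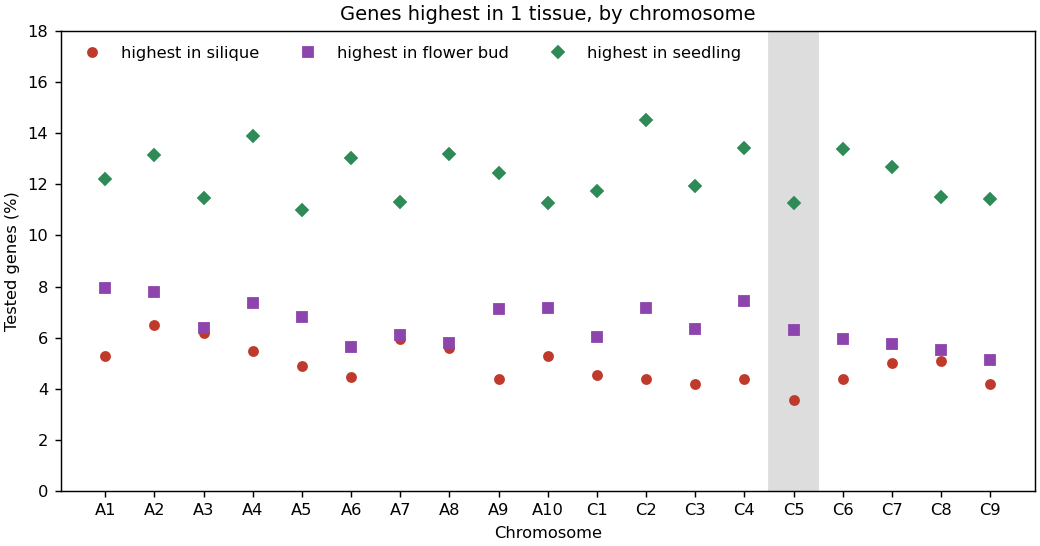
Percentage of tested genes called highest in silique (circles), flower bud (squares) or seedling (diamonds) on each of the 19 chromosomes, with C5 shaded. C5 has the lowest circle, at 3.56%, while its square, at 6.31%, and its diamond, at 11.3%, lie within the range of the other chromosomes.

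All 19 alternative settings reuse the libraries in which C5 was picked for its few genes highest in silique. Its standing in them is therefore description only. The C5 share highest in silique stayed under the share of the other genes in all 19, and it was the lowest of the chromosomes in 17. The exceptions were the settings without silique replicate 1 or 2, where the calls on C5 fell to 30 and 34 genes and C2 had the lowest share. edgeR on the recovered reads called 123 C5 genes highest in silique, 4.18% of those it tested, against 5.51% elsewhere. Without flower bud replicate 1 or 2, 39 and 42 C5 genes were highest in flower bud.

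Means were also compared without any call. The mean was highest in silique for 759 tested C5 genes, 26.5%, against 28.4% elsewhere, and C2 and C6 had lower shares. It was highest in flower bud for 37.2% and in seedling for 36.4% of C5 genes, against 36.5% and 35.1% elsewhere.

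The 102 genes highest in silique had silique levels from 1.47 to 847 RPM, with a median of 12.6. Their median level in single libraries was 12.1 and 13.0 in silique, 0.71 and 0.62 in seedling, and 0.84 and 0.98 in flower bud. By the smaller of its differences over the other tissues, a gene exceeded them by a median log2 of 1.68 (1.71 for genes highest in silique elsewhere); 61 genes lay under 2 and 17 reached at least 3. Flower bud was the nearer tissue for 52 of them and seedling for 50. Summed over the 102 genes, the level was 4642 ± 32.2 RPM in silique (SD, n = 2), 659 ± 0.048 in flower bud and 728 ± 163 in seedling, and the 2 most abundant genes gave 28.8% of the silique sum.

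Those 2 genes had identifier numbers 45470 and 45850 and were not direct neighbours in the order. ZS11C05G045470 had 861 and 832 RPM in silique, 4.11 and 4.37 in seedling, and 4.76 and 6.69 in flower bud. Its log2 difference was 7.34 ± 0.169 over seedling (SE; limma adjusted p = 1.08e-05) and 6.99 ± 0.169 over flower bud (limma adjusted p = 9.44e-06). ZS11C05G045850 had 502 and 482 RPM in silique, 9.05 and 9.37 in seedling, and 10.8 and 9.62 in flower bud. The log2 difference was 5.59 ± 0.127 over seedling (SE; limma adjusted p = 1.06e-05) and 5.46 ± 0.127 over flower bud (limma adjusted p = 9.38e-06). Both were far above all 4 libraries of the other tissues.

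Besides ZS11C05G045470, the other gene named as higher in silique than in either tissue was ZS11C05G003760. It had 116 and 115 RPM in silique, 4 and 0 reads in the seedling libraries and 2 reads in each flower bud library. The log2 difference was 6.75 ± 0.213 over seedling (SE; limma adjusted p = 2.43e-05) and 6.68 ± 0.213 over flower bud (limma adjusted p = 1.77e-05).

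Seedling held the most abundant C5 genes, and its libraries disagreed about their level. ZS11C05G009810 had 1159 and 2681 RPM in seedling, 532 and 524 in silique, and 292 and 252 in flower bud. Both seedling libraries were above all others, and replicate 2 was far above replicate 1. The log2 difference was -2.70 ± 0.423 for flower bud minus seedling (SE; limma adjusted p = 0.00245) and -1.74 ± 0.423 for silique minus seedling (limma adjusted p = 0.0166). The second call was lost without silique replicate 1 (adjusted p = 0.108), silique replicate 2 (adjusted p = 0.112) or flower bud replicate 2 (adjusted p = 0.0507), and both were lost with each pair fitted alone (adjusted p = 0.153 and, for flower bud, 0.0509). ZS11C05G030120 had 1189 and 2256 RPM in seedling, 170 and 159 in silique, and 113 and 106 in flower bud. Its log2 difference was -3.89 ± 0.318 for flower bud minus seedling (SE; limma adjusted p = 0.00019) and -3.31 ± 0.318 for silique minus seedling (limma adjusted p = 0.000484). The 10 C5 genes with most reads took 9.56% of the C5 reads in seedling replicate 1 and 16.2% in replicate 2, against 8.84% and 8.71% in silique, and 7.52% and 7.49% in flower bud.

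**Figure D2:**
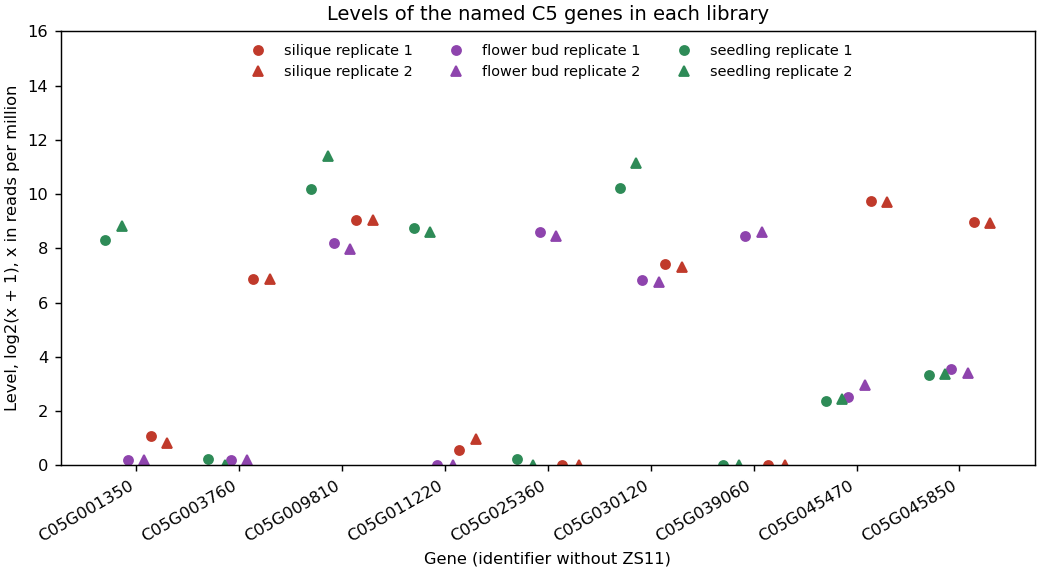
Level of the 9 C5 genes named by rule, as log2(x + 1) with x in RPM, in each of the 6 libraries (circles, replicate 1; triangles, replicate 2; colours mark tissues). Replicates lie close together in flower bud and silique, while the seedling points of ZS11C05G009810 (1159 and 2681) and ZS11C05G030120 (1189 and 2256) lie apart.

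Genes read in a single tissue were fewest for seedling and most for flower bud. With a level of at least 1 in both libraries of a tissue and 0 reads in the other 4 libraries, C5 held 38 genes for flower bud, 16 for silique and 8 for seedling. These were 0.830%, 0.350% and 0.175% of the listed C5 genes, against 0.737%, 0.735% and 0.208% on the other chromosomes. For silique the share was the lowest of the 19 chromosomes, with C1 next at 0.365% and A2 highest at 1.11%. Of the 102 C5 genes highest in silique, 16 had 0 reads in both other tissues. This rank is therefore not separate from the choice of C5 and is description only. Silique levels of these 16 genes ran from 1.59 to 88.8 RPM, with a median of 5.28.

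Along the order, the listed genes were cut into 20 blocks of 228 or 229. The genes highest in silique were unevenly spread, and 4 neighbouring blocks, 9 to 12, were almost empty of them. These blocks ran from number 23250 to number 38550 and held 915 listed genes, of which 502 were tested. Only 3 of the 502 were highest in silique, 0.598%, against 99 of 2367, or 4.18%, on the rest of C5. Block 9 had 0 of 133, and blocks 10, 11 and 12 had 1 each. At the other end, block 3 (numbers 5370 to 8230) had 13 of 174, or 7.47%. Without any single flower bud or silique library, 1 gene of the stretch was called, or 0.201% to 0.209%. The blocks were picked out by these very values, so the difference was not tested.

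**Figure D3:**
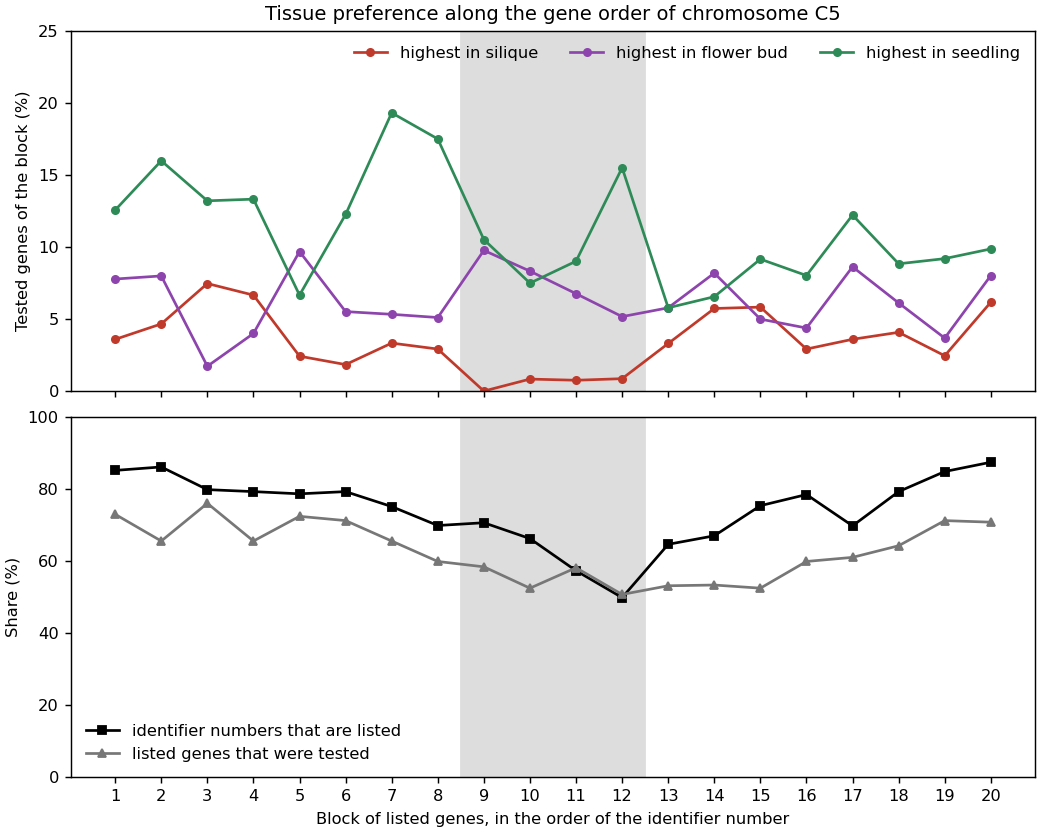
Top: percentage of tested genes called highest in silique, flower bud or seedling in each of 20 blocks of listed C5 genes. Bottom: percentage of identifier numbers that are listed (squares) and of listed genes that were tested (triangles). In the shaded blocks 9 to 12 the silique line lies between 0 and 0.862%, while the flower bud line lies between 5.17% and 9.77%.

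Genes highest in flower bud or seedling were nearly as frequent in this stretch as on the rest of C5, or more so. Of its 502 tested genes, 38 were highest in flower bud, 7.57%, against 6.04% on the rest of C5, and 53 were highest in seedling, 10.6% against 11.4%. In the contrast without silique, 18.9% of its genes were higher and 15.5% lower in flower bud than in seedling, against 19.6% and 18.8% on the rest of C5. Genes higher in silique were fewer in both contrasts: 44 genes, 8.76%, against seedling, where the rest of C5 had 14.7%, and 25 genes, 4.98%, against flower bud, where the rest had 237 of 2367. Genes lower in silique were about as common as on the rest of C5, 15.1% against 14.6% relative to seedling and 8.57% against 8.70% relative to flower bud. The median log2 difference of silique minus flower bud was -0.09 in the stretch and 0.00 on the rest of C5. Silique had the highest mean for 22.9% of the genes in the stretch and 27.2% on the rest. The stretch was picked for its few genes called higher in silique in both contrasts. The shares higher or lower in silique, the median and the means draw on the same values and are description only. Calls of highest in flower bud or in seedling also need a contrast with silique. Those shares are therefore not separate from the choice either.

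Fewer genes of the stretch were listed and tested. Listed genes were 59.8% of the identifier numbers in it and 76.8% on the rest of C5, with the lowest value, 49.8%, in block 12. Tested genes were 54.9% of those listed, against 64.7% on the rest. Their median level over the 6 libraries was 6.87 RPM, against 9.11 on the rest of C5 and 7.96 on other chromosomes. Below 5 RPM, 0 of 192 genes in the stretch were highest in silique, against 47 of 830 on the rest of C5. Between 5 and 20 it was 2 of 205 against 35 of 860, and between 20 and 100 it was 0 of 94 against 13 of 596. From 100 upward it was 1 of 11 against 4 of 81, too few genes to read an order from. These levels only divide the calls by which the stretch was picked, so they are description only. Blocks 13 to 15, next to the stretch, were tested about as sparsely, with 52.4% to 53.3% of listed genes, and had 3.31% to 5.83% highest in silique. Over the 20 blocks of C5, the Spearman correlation of the tested share with the share highest in silique was 0.31. Whether sparse testing or the level of the genes bears on the lack of genes highest in silique was not tested.

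**Figure D4:**
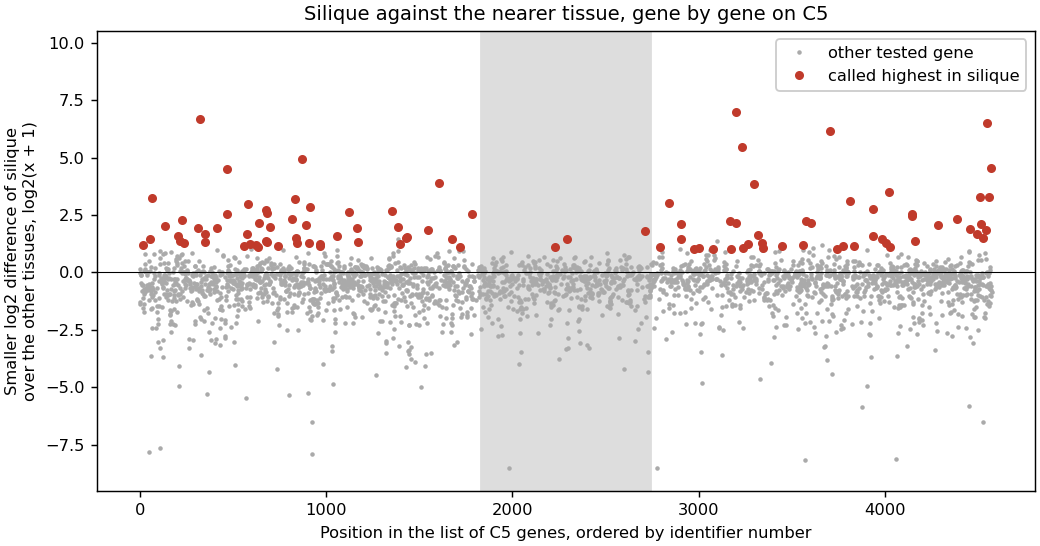
Each point is a tested C5 gene, placed by its position in the list of C5 genes. The vertical axis gives the smaller of its log2 differences of silique over seedling and over flower bud, on the log2(x + 1) scale, and large points are the 102 genes called highest in silique. In the shaded stretch (positions 1832 to 2746) 3 such points appear, all below 2 on this axis.

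The 3 genes of the stretch that were highest in silique are named here after their values were seen. ZS11C05G037910 had 423 RPM in each silique library, 139 and 104 in seedling, and 99.3 and 108 in flower bud, and it lies near the far end of the stretch. ZS11C05G029120 had 24.6 and 25.2 in silique, 10.9 and 11.3 in flower bud, and 5.76 and 3.75 in seedling. ZS11C05G030040 had 13.5 and 17.5 in silique, 5.04 and 4.88 in flower bud, and 3.57 and 1.87 in seedling. Their log2 differences of silique over flower bud reached 2.02 for ZS11C05G037910 and 1.46 for ZS11C05G030040 (limma adjusted p = 0.000573 for ZS11C05G037910, 0.0096 for ZS11C05G029120 and 0.0102 for ZS11C05G030040). None of the 16 genes read in silique alone lay in the stretch, while 4 of the 38 read in flower bud alone did. The stretch was picked for its few genes highest in silique, and the 3 it held were read in all 6 libraries. The lack of genes read in silique alone is therefore not separate from that choice.

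In order, 244 tested genes in a row, between numbers 22510 and 29120, held no gene highest in silique, and a further 221 followed between numbers 30040 and 37910. The longest such row on another chromosome was 170 genes, on C3, and the median over the other chromosomes was 112.5. Long rows also occurred for other tissues. Without a gene highest in flower bud the longest was 214 genes elsewhere, on C7, and 115 on C5. Without a gene highest in seedling it was 119 elsewhere, on C1, and 87 on C5. C5 was picked for its low share of genes highest in silique, and a lower share leaves longer rows. The comparisons of rows and of the blocks poorest in such genes are therefore description only. The longest C5 row without a gene highest in silique depended on the setting: it was 150 genes by adjusted p alone, 177 with edgeR and 572 with a log2 difference of at least 2. It was 476 and 475 without flower bud replicate 1 or 2, and 494 and 493 without silique replicate 1 or 2. Rows on other chromosomes were not recomputed under these settings. Cutting each chromosome into 20 blocks, the poorest 4 neighbouring blocks elsewhere held 1.83% on C9 and 1.88% on A10. For flower bud and seedling the poorest 4 blocks of C5 held 5.21% and 7.40%, within a range of 1.49% to 5.96% elsewhere for flower bud and under a range of 7.82% to 10.9% for seedling. With 10 blocks in place of 20 the same 915 listed genes lay in blocks under 1%. Each of the 10 blocks joins 2 neighbours of the 20, so that outcome was fixed in advance and is no check. With 40 blocks 572 listed genes lay in blocks under 1%, all inside the stretch.

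Genes of the stretch took 15.6% and 16.1% of the C5 reads in seedling, 15.2% and 15.3% in flower bud, and 13.8% in each silique library. The silique libraries were lowest, but their distance from seedling rested on the single gene ZS11C05G030120. Without it the shares were 14.0% and 13.3% in seedling, 13.5% in each silique library, and 15.02% and 15.10% in flower bud. Silique then lay between the seedling libraries and still below both flower bud libraries. This setting was chosen after seeing the data, and the stretch itself was picked for its lack of genes highest in silique.

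**Figure D5:**
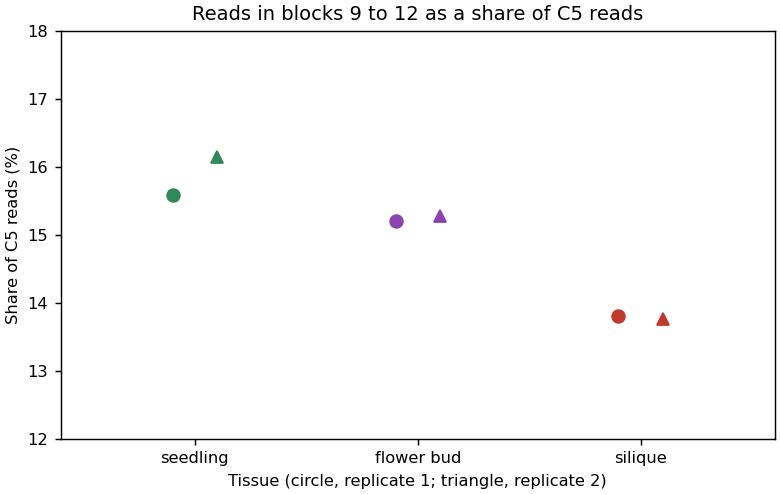
Reads in blocks 9 to 12 as a percentage of all C5 reads, 1 point per library (circle, replicate 1; triangle, replicate 2; the axis starts at 12%). Both silique points lie at 13.8%, under the flower bud points (15.2% and 15.3%) and the seedling points (15.6% and 16.1%), which include ZS11C05G030120.

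Elsewhere on C5 the preferences shifted from block to block. Block 3, which had most genes highest in silique, had fewest highest in flower bud, 3 of 174 or 1.72%, and only 4 of its genes were lower in silique than in flower bud. In block 5 (numbers 11130 to 14020) 26 of 165 genes, 15.8%, were lower in silique than in flower bud, the highest share of any block. Seedling preference peaked in block 7 (numbers 16920 to 19960), where 29 of 150 genes were highest in seedling, 19.3%, and was lowest in block 13 (numbers 38580 to 42100) with 7 of 121, or 5.79%. No test was made between blocks.

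Neighbours highest in the same tissue were mostly seedling genes. Among tested genes in number order, seedling had 33 pairs, 9 runs of 3, 4 of 4, 1 of 5 and 1 of 6. Flower bud had 12 pairs and silique 8, with no longer run. Seedling also had most genes to form runs from, 323 against 181 for flower bud and 102 for silique. Whether runs were more frequent than these numbers alone would give was not tested. The longest run held 6 genes between numbers 17940 and 18040, which together had 130 and 117 RPM in seedling, 10.2 and 8.83 in silique, and 10.2 and 9.76 in flower bud. A run of 4 between numbers 11170 and 11220 had 530 and 527 in seedling, 8.24 and 9.02 in silique, and 5.04 and 5.99 in flower bud, and most of it came from ZS11C05G011220. Inside the silique-poor stretch, 4 genes between numbers 31160 and 31220 had 528 and 860 in seedling, 215 and 207 in silique, and 77.3 and 69.1 in flower bud. The most abundant silique pair, between numbers 62580 and 62600, had 138 RPM in each silique library, 13.9 and 11.9 in seedling, and 10.4 and 10.9 in flower bud. If neighbours are near-identical copies that share reads, their single levels are uncertain, which was not tested.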

How the data were processed

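The deposited counts of reads per gene have the column layout of featureCounts, per the file headers, and the submitters' processing notes list edgeR, featureCounts, GATK, HISAT2 and SAMtools; their versions, settings and strand use and the genome build are not given in these sources. The count table holds no gene of C5, so the deposited normalized signal, a scaling of the authors by trimmed mean (TMM) factors going by the deposited file's name, was used. Its values were whole multiples of 1 step per library: 100% came out whole within 0.05 reads, and 100% of 51324 shared genes equalled the count table. Of the recovered counts above 0, 82.1% to 89.3% per library were even numbers, and whether both mates of a read pair were counted is not given, so floors of 3 counts cover counting error at best.

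Recovered reads were rescaled to RPM (x, reads scaled to a common library size) with newly computed TMM factors (edgeR 4.0.16), because with the deposited scaling the median log2 difference over all genes was 0.48 for flower bud minus seedling. Genes with x of at least 1 in 2 or more libraries were tested on log2(x + 1) with limma 3.58.1 in R 4.3.3 (intensity trend, all 6 libraries, no replicate block) and adjusted over 51326 genes on all chromosomes. The members, lists and tests were chosen with earlier results of these data known. The stretch of blocks 9 to 12 was found in these data. Named genes are, per pair of tissues, the 2 C5 genes that rose and the 2 that fell most among called genes with at least 50 RPM in the higher tissue and no overlap, and the 2 most abundant genes highest in each tissue. Alternatives used edgeR, DESeq2 1.42.0, other scalings, pseudocounts, filters and call rules, and left out each library. On the recovered reads, edgeR called 592 C5 genes higher and 578 lower in flower bud than in seedling, 416 and 502 in silique than in seedling, and 351 and 342 in silique than in flower bud. SciPy 1.17.1 and matplotlib 3.10.9 were used.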

Additional observations from a re-analysis of the deposited data

How the results depend on the processing

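With 2 libraries per tissue, spread limits every count; where 1 library is left out, the lone library of that tissue is assumed to vary like the others. No pairing of libraries by replicate number was seen, which does not exclude a shared origin. Deviations of same-numbered libraries correlated between -0.022 and 0.0029. The replicate block gave 103 C5 genes highest in silique in place of 102, with every count within 1.5 times its value without the block. All 18 differences of the named genes kept their direction in 308 alternative values, and 302 kept the call. The other 6, of ZS11C05G009810, did not.

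Counts moved as follows. By adjusted p alone, C5 genes higher and lower in silique numbered 616 and 651 against seedling and 436 and 398 against flower bud, those highest in flower bud and seedling 279 and 499, and those lowest in silique, flower bud and seedling 103, 275 and 424, from 42, 145 and 229; the share highest in silique was 5.26%. With a log2 difference of at least 2, 142 were higher and 209 lower in flower bud than in seedling, 92 and 132 in silique than in seedling, and 79 and 80 in silique than in flower bud; 41, 63 and 106 were highest and 3, 23 and 24 lowest in silique, flower bud and seedling, the silique share was 1.43% on C5 and 0.0% in blocks 9 to 12. The filter at 5 left 157 lower in silique than in flower bud and 112 highest in flower bud. Genes lowest in silique were 64 with DESeq2, 90 with edgeR and 74 at pseudocount 0.25. Those lowest in seedling were 137 with each pair fitted alone and 417 with the values as deposited, which gave 870 higher in flower bud than in seedling. The share highest in silique was 2.21% with DESeq2, 2.50% without a filter (both over all genes with a read) and 2.82% at pseudocount 2; elsewhere it was 3.02%, 3.32% and 3.88%. In blocks 9 to 12 it ranged from 0.0% to 1.52%, under the rest of C5 in all 19 settings. These blocks were picked by the main calls on the same libraries, so their lower share is description only. With 40 blocks, 572 listed genes lay in blocks under 1%. Without the 10 most abundant genes of each library, the C5 share of reads differed by 0.126 points between flower bud and seedling and by -0.0194 between silique and flower bud. The cause of these moves was not tested, apart from fewer or more genes passing a changed rule.

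Leaving out 1 library gave 280 to 745 C5 genes higher and 440 to 516 lower in flower bud than in seedling, 196 to 582 and 338 to 428 in silique than in seedling, and 107 to 284 and 70 to 285 in silique than in flower bud. Genes highest in silique, flower bud and seedling ranged over 30 to 112, 39 to 211 and 230 to 320, and genes lowest there over 20 to 61, 72 to 163 and 131 to 433. The share highest in silique ranged from 1.07% to 4.07%, and in blocks 9 to 12 from 0.201% to 0.816%.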
